A study of Mus musculus with 25 samples.

Results

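Thioredoxin, glutathione and selenium chemistry was followed in the mouse hypothalamus through 4 genes, Txnrd1, Txn2, Gclm and Scly, which were taken by symbol from the probe annotation of the arrays. They are 4 of 8726 genes named there, and each had 1 probe. Male Balb/c mice, 8 weeks old, received CT-26.WT, a carcinoma cell line derived from Balb/c colon, under the skin in PBS. Control mice received PBS alone, and no group received another kind of cell. Hypothalamus was taken at 18, 72 or 192 h, and each 2-colour array set tumor-bearing against PBS hypothalamus in 1 hybridisation. Whether a biological replicate stands for 1 mouse or for pooled tissue is not stated in the labels, so the p-values cover the spread between hybridised samples, part of which may be technical. In whole hypothalamus, fewer cells of a type and less RNA per cell cannot be told apart.

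Cells keep protein thiols reduced through parallel systems. Txnrd1 is the cytosolic thioredoxin reductase, a selenoprotein that passes electrons from NADPH to thioredoxin. Txn2 is the mitochondrial thioredoxin, which donates electrons to the mitochondrial peroxiredoxin. Gclm is the modifier subunit of glutamate-cysteine ligase, the enzyme of the rate-limiting step of glutathione synthesis. Scly, selenocysteine lyase, splits selenocysteine into alanine and a reduced form of selenium that can be used again for new selenoproteins such as Txnrd1. In brain, astrocytes are known as the main source of the glutathione precursors that neurons use. Txnrd1 and Gclm are textbook targets of the transcription factor NRF2, which binds antioxidant response elements.

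That shared background is why the stretches of promoter with an antioxidant response element core are shown. The core TGACNNNGC, searched on both strands, was found in 2 of the 6 start-site windows that RefSeq gives for the 4 genes (assembly GRCm38.p6, 250 bases before to 50 bases after each start). In both, the match lay on the minus strand of genes that run on the plus strand. The Txnrd1 stretch is chr10:82859099-82859137 and the Gclm stretch chr3:122245408-122245446, both written 5′ to 3′ on the minus strand with the core in capitals.
Txnrd1: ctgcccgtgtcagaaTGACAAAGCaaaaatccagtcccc
Gclm: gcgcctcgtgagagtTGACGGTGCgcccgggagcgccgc
The Txnrd1 core stands 84 to 92 bases before the middle of its 3 starts, and the Gclm core 126 to 134 bases before its start. The letters were not in the windows of Txn2 and Scly or in the other windows of Txnrd1. Of all 32851 windows of that length, 12.4% hold the core, so a match is a description of these letters alone.

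The rule left 6 of the 25 arrays out, namely all arrays of 72 h replicates 1 and 2 and 1 array of 192 h replicate 1. By probe name, their brightness did not follow that of the arrays used (median Spearman rho 0.0261 over 114 pairs, against 0.374 over 171 pairs among the arrays used). The 19 arrays used hold 11 biological replicates. Of these 5 belong to 18 h, 2 to 72 h and 4 to 192 h. Replicates 1 and 2 were polyA RNA, hybridised in a single dye orientation, and the other 7 were total RNA in both orientations. No polyA replicate was used at 72 h. Between 3056 and 9839 spots were measured per array, and the median signal over local background was 1.07 to 3.39, so many spots were dim. Oxt, the oxytocin gene, was measured on 19 of 19 arrays with a median signal of 13.8 times background, and Pmch, a lateral hypothalamic peptide gene, on 15 of 19 at 18.3 times, so defining hypothalamic transcripts were present. Of 18 hypothalamus markers listed, 12 were on the array. Among these the dimmest was the regional transcription factor Nkx2-1, at 1.38 times background on 15 arrays. The least often measured were Sim1, on 9 of 19 arrays at 1.42 times, and Ghrh, on 10 of 19 at 1.96 times. In the 7 pairs of arrays that hold the same total RNA pair with swapped dyes, the ratios turned to tumor over PBS correlated below 0 across genes in 6 (median r -0.265), so swapped arrays of the same RNA disagreed across the array, which limits every ratio given here. The direction tumor over PBS follows from the order in which the labels list the dyes and is likely rather than settled. Positive values below mean higher in tumor-bearing mice on that reading.

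None of the 4 genes changed at any time by the test across all genes (limma, Benjamini-Hochberg adjusted p under 0.05). At 18 h all 4 were tested and 0% of the 5064 genes tested passed. At 72 h only Txn2 met the minimum of 2 replicates, and 0% of 1930 genes passed. At 192 h Txnrd1, Gclm and Scly were tested, and 0% of 2798 genes passed. At an unadjusted p under 0.05 there was 1 of the 4 genes at 18 h, Txnrd1, where 5.45% of all genes reached it. There was 1 of 3 at 192 h, Scly, against a background of 4.25%, and none at 72 h, where the background was 1.71%. No limma adjusted p of the 4 genes at a time was below 0.880.

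**Figure D1:**
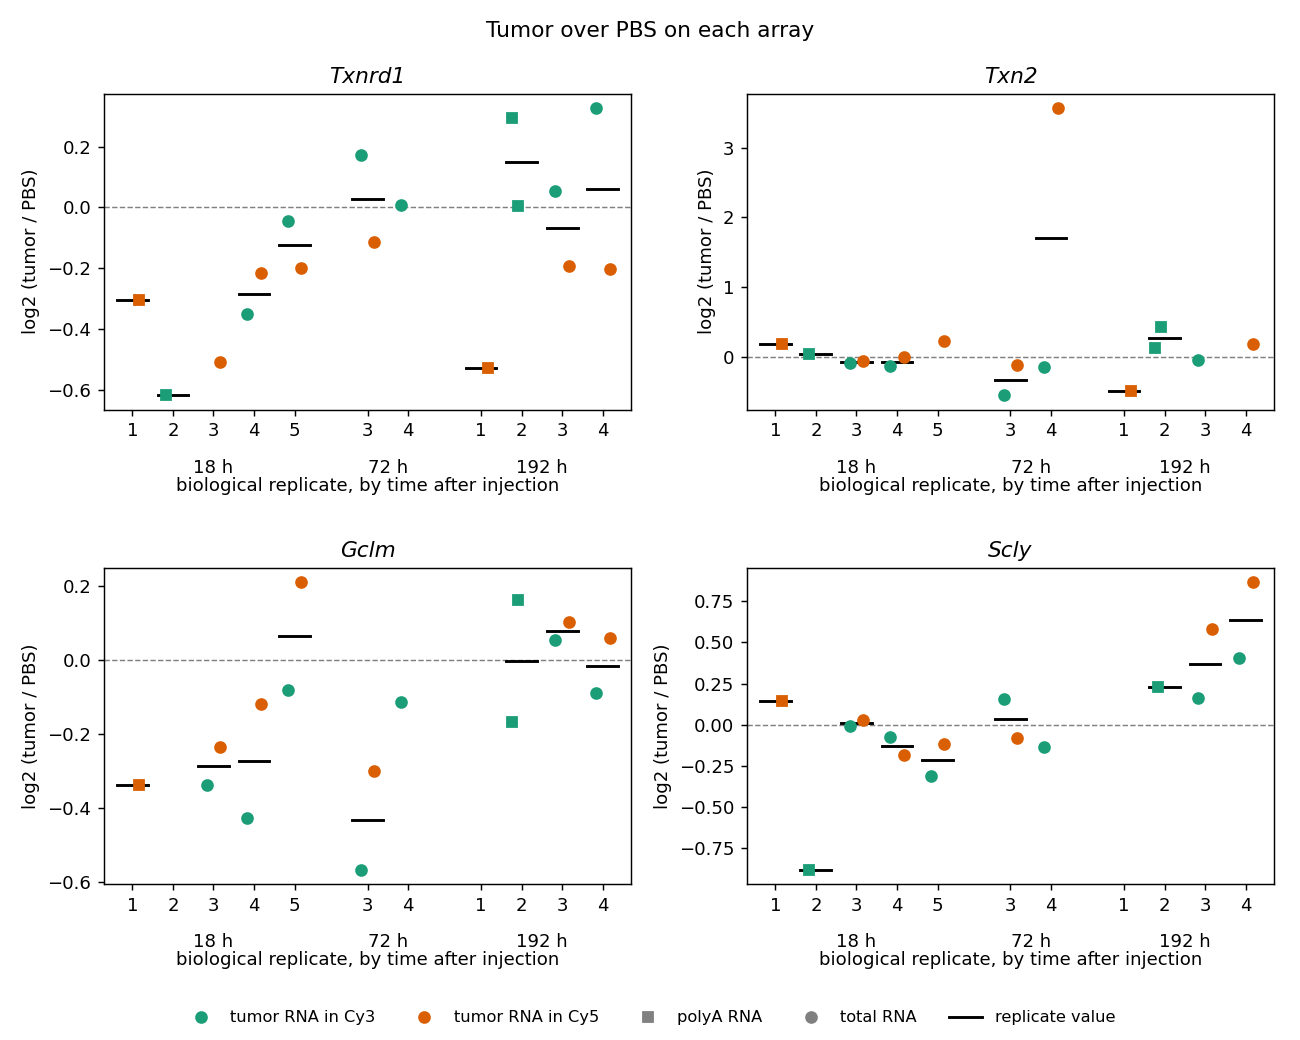
Log2 ratio of tumor over PBS (y axis) on each array used, by biological replicate and time (x axis), for Txnrd1, Txn2, Gclm and Scly. Colour gives the dye of the tumor RNA, squares are polyA RNA, circles total RNA, and black lines are replicate values, which a total RNA replicate has only with both orientations. Txnrd1 lies below 0 on every 18 h array with a value, Scly above 0 on every 192 h array with a value, and a single Txn2 array at 72 h stands at 3.57.

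Txnrd1 was lower in tumor-bearing hypothalamus on each array measured at 18 h, in the mean of the scans, though not past the threshold. The polyA replicates gave -0.30 (replicate 1, tumor in Cy5) and -0.62 (replicate 2, tumor in Cy3) on the log2 scale. Replicate 4 gave -0.21 with the tumor in Cy5 and -0.35 in Cy3, and replicate 5 gave -0.20 and -0.05 in the same order. On each array of replicates 4 and 5 the scans lay on either side of 0. They ran from -0.50 to 0.07 and from -0.79 to 0.23 in replicate 4, and from -0.44 to 0.01 and from -0.33 to 0.27 in replicate 5. The authors' value was above 0 for replicate 1 (0.048) and below 0 on the other 18 h arrays. Replicate 3 was measured only with the tumor in Cy5, at -0.51, and so gave no replicate value. All 4 replicates were below 0, with a mean of -0.33 ± 0.21 (SD, n = 4), a fold of 0.795. The limma estimate was -0.33 ± 0.13 (SE), with a 95% confidence interval of -0.62 to -0.05 before any correction, an unadjusted p of 0.0262 and an adjusted p of 0.886. Without replicate 2, the most negative, the estimate was -0.14, and the total RNA replicates alone gave -0.20 ± 0.15 (SE, adjusted limma p 0.948). The size also moved with the normalization, from -0.15 in the authors' values to -0.61 after normexp background correction.

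At the later times Txnrd1 did not lie on 1 side of 0. At 72 h replicate 3 gave -0.12 with the tumor in Cy5 and 0.17 in Cy3, a replicate value of 0.028. At 192 h the replicates lay on either side of 0, at -0.53, 0.15, -0.07 and 0.06 for replicates 1 to 4. Their mean was -0.10 ± 0.30 (SD, n = 4), and the limma estimate -0.10 ± 0.13 (SE, adjusted p 0.999). The 192 h values overlapped those of 18 h, and the lowest of them was the polyA replicate with the tumor in Cy5. Without that replicate the 192 h estimate was 0.074. Of the 4 probes, the one for Txnrd1 was measured most often, on 17 of 19 arrays, at 1.03 to 8.26 times background, and on no array below background.

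Txn2 lay on either side of 0 at 18 h, with little spread between the replicate values. The polyA replicates gave 0.19 and 0.05, and total RNA replicates 3 and 4 gave -0.07 each, a mean of 0.03 ± 0.12 (SD, n = 4). The scans of replicate 1 ran from -0.31 to 0.72, and replicate 2 came from 2 scans of a spot at 0.888 times background. The arrays of replicate 3 carried the brightest Txn2 spots, at 14.8 and 12 times background, and they gave -0.06 and -0.08 in the opposite dye orientations. Replicate 5 was measured only with the tumor in Cy5, at 0.23. The limma estimate at 18 h was 0.03 ± 0.26 (SE), with a 95% confidence interval of -0.55 to 0.61 and an adjusted p of 0.994. That wide interval takes in the large spread of Txn2 at 72 h, since the times share an estimate of the spread. The total RNA replicates alone gave -0.07.

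At 72 h the Txn2 estimate of 0.69 ± 0.37 (SE, n = 2, adjusted limma p 0.992) rested on a single array. Replicate 3 gave -0.11 with the tumor in Cy5 and -0.55 in Cy3, a value of -0.33. Replicate 4 gave 3.57 with the tumor in Cy5 and -0.14 with the dyes swapped, a value of 1.71. The high array was high in all 3 scans, at 3.07 to 3.89, with a spot 9.77 times background. On it, the tumor channel of the spot stood 1.46 above that channel's array median and the PBS channel 1.98 below its own (log2). The authors' values listed none for this spot on that array, and 0.11 on the swapped array. The same RNA pair thus gave a high and a near-zero ratio, and without replicate 4 the estimate was -0.33.

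At 192 h Txn2 had values in the polyA replicates only, -0.48 in replicate 1 and 0.28 in replicate 2. The fitted value was -0.10 ± 0.37 (SE), and it was not tested because a minimum of 3 replicates was set at 192 h. Replicate 2 was hybridised on 2 arrays of the same orientation, at 0.13 and 0.43. The total RNA replicates were measured in single orientations, at -0.05 for replicate 3 (tumor in Cy3) and 0.19 for replicate 4 (tumor in Cy5). All 192 h arrays were dim for this gene, at 0.928 to 1.44 times background.

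Gclm was below 0 in 3 of 4 replicates at 18 h. Replicate 1, polyA RNA, gave -0.34. Replicate 3 gave -0.23 and -0.34, and replicate 4 -0.12 and -0.43, with the tumor in Cy5 and Cy3 in that order. Replicate 5 stood apart from these, at 0.21 with the tumor in Cy5 and -0.08 in Cy3, a value of 0.065. Its spots were also the brightest for Gclm among the arrays used, at 10.1 and 6.88 times background against 1.43 to 2.42 on the other 18 h arrays. Whether brightness has a part in the difference was not tested. The mean was -0.21 ± 0.18 (SD, n = 4) and the limma estimate -0.19 ± 0.12 (SE, adjusted p 0.886). Without replicate 5 it was -0.29.

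At 72 h only replicate 3 gave Gclm in both orientations, at -0.30 and -0.57, and replicate 4 gave -0.11 with the tumor in Cy3. All 3 array values were negative. The fitted value was -0.43 ± 0.21 (SE), and with 1 replicate it stood below the minimum of 2 set for a test at 72 h. At 192 h the values were close to 0, with -0.0035 in replicate 2, 0.08 in replicate 3 and -0.02 in replicate 4. Their mean of 0.02 ± 0.05 (SD, n = 3) had the smallest SD of any of the 4 genes at a time with 3 or more replicates. That SD leaves out the differences between arrays. The arrays of replicate 2, both with the tumor in Cy3, gave -0.17 and 0.16. With the tumor in Cy5 and Cy3 in that order, replicate 3 gave 0.10 and 0.05 and replicate 4 gave 0.06 and -0.09. The limma estimate was -0.0059 ± 0.14 (SE), with a 95% confidence interval of -0.31 to 0.30 and an adjusted p of 0.999. Its sign turned with the dye term left out, to 0.019. The interval does not exclude the size seen at 18 h.

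Scly had the smallest p-values of the 4 genes, in the direction of higher levels in tumor-bearing hypothalamus at 192 h. Replicate 3 gave 0.58 with the tumor in Cy5 and 0.16 in Cy3, and replicate 4 gave 0.87 and 0.41. Replicate 2, polyA RNA, gave 0.23 on the array that measured it, and replicate 1 was not measured on the array used. All 5 arrays and all 3 replicates were above 0, with a mean of 0.41 ± 0.21 (SD, n = 3). The limma estimate was 0.56 ± 0.13 (SE), a fold of 1.48, with an unadjusted p of 0.00157 and an adjusted p of 0.880. It had the rank 5 by p among the 2798 genes tested. The estimate is higher than the mean because the dye term takes up the lone polyA value. That term also draws on the 18 h polyA replicates, among them replicate 2, at -0.88 from a spot at 0.901 times background. Without 18 h replicate 2 the dye coefficient was 0.26 in place of 0.45. The 192 h estimate was then 0.50 (unadjusted limma p 0.00243). Without the dye term the estimate over all replicates was 0.41 with an unadjusted limma p of 0.0494. With the total RNA replicates alone it was 0.50 ± 0.15 (SE, unadjusted limma p 0.00481, adjusted p 0.998).

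The Scly spots behind that estimate were dim. The arrays of replicates 3 and 4 with the tumor in Cy3 stood at 0.896 and 0.889 times background, and the array of replicate 2 at 1.18. Only the arrays of replicate 2 and of replicate 3 with the tumor in Cy5 were measured in all 3 scans, and the other 3 in 1 scan each. With spots under background left out, no 192 h estimate could be made for Scly. The authors' values, read as natural log and turned to log2, were 0.46 for replicate 3 with the tumor in Cy5, 0.41 and 0.0044 for replicate 4, and -0.16 for replicate 2. They gave no value in both orientations of replicate 3, so no estimate could be made from them either. With all 25 arrays the limma estimate was 0.37 (adjusted p 0.999).

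**Figure D2:**
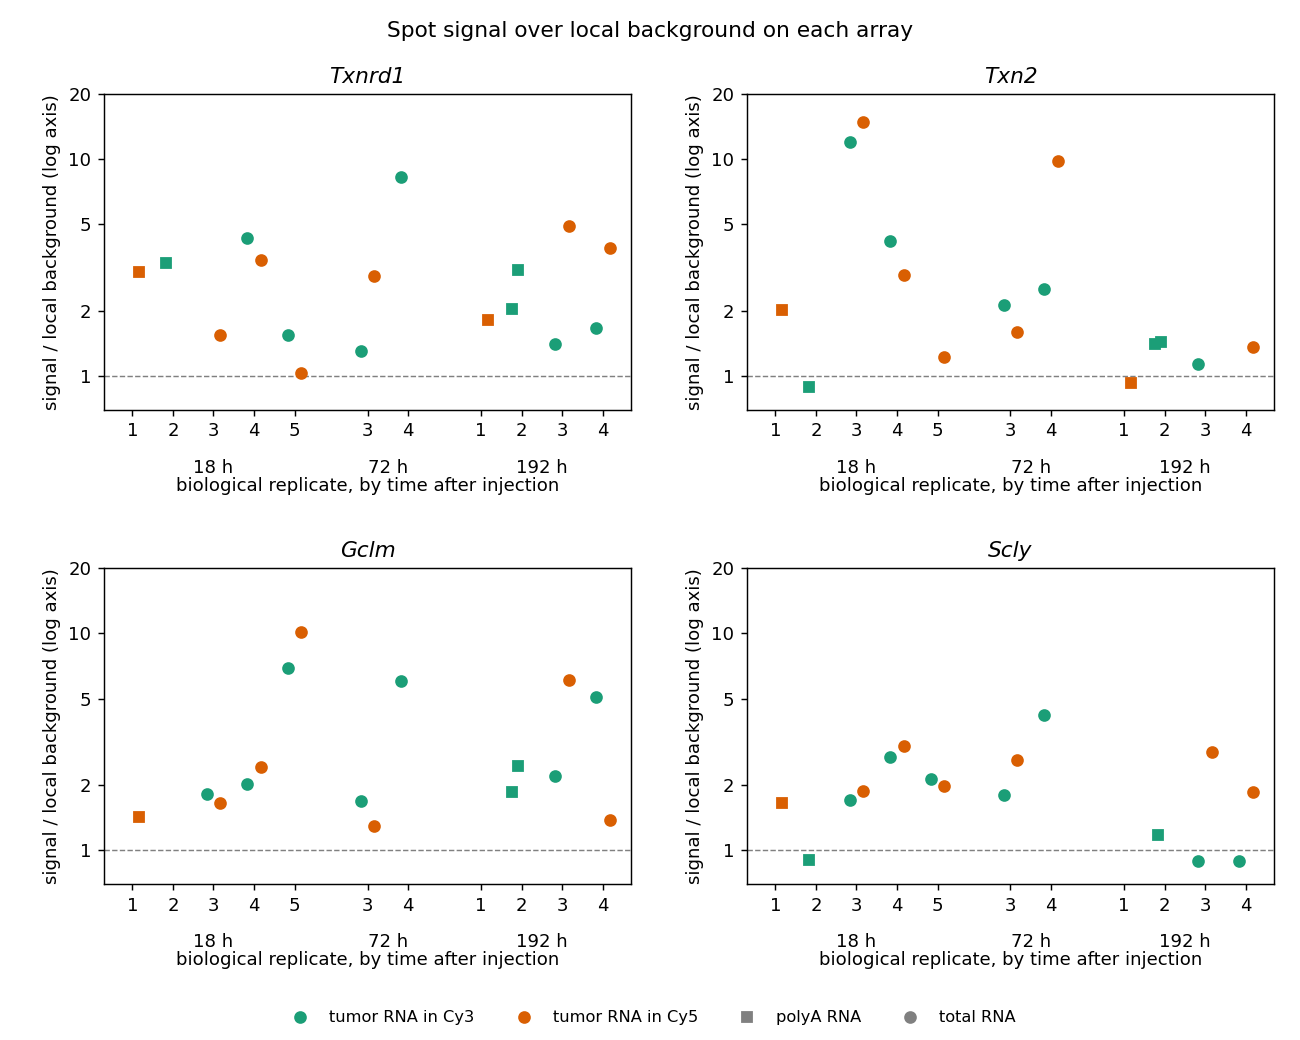
Spot signal over local background (y axis, log scale) on each array used, by replicate and time (x axis), in the colours and symbols of the plot of log2 ratios. The dashed line marks a signal equal to background. Scly lies under that line on 3 arrays, 2 of them at 192 h, and Txn2 at 18 h replicate 3 reaches 14.8.

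At 18 h Scly was spread around and below 0. The polyA replicates differed most, at 0.15 in replicate 1 and -0.88 in replicate 2, the latter from 1 scan of a spot at 0.901 times background. The total RNA replicates 3, 4 and 5 gave 0.013, -0.13 and -0.21. The mean was -0.21 ± 0.40 (SD, n = 5) and the limma estimate -0.21 ± 0.10 (SE, adjusted p 0.886). Here too the dye term takes up part of the polyA difference, and without replicate 2 the estimate was -0.11. At 72 h replicate 3 gave -0.08 and 0.15 in the opposite orientations, a value of 0.036, and replicate 4 gave -0.14 with the tumor in Cy3.

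The difference between 192 h and 18 h was computed as a contrast of the same fit, added after the values of the 4 genes had been seen, because too few 72 h values existed to compare all 3 times. Scly stood 0.78 ± 0.17 higher at 192 h (SE, 95% confidence interval 0.41 to 1.14), a ratio of folds of 1.71. Its highest replicate value at 18 h was 0.15 and its lowest at 192 h was 0.23, from spots at 1.66 and 1.18 times background. The scans behind these values ran from -0.37 to 0.66 and from 0.14 to 0.40, so they overlapped. How many of all genes show such a gap was not counted, so the gap describes these values alone. The authors' values per array also overlapped, reaching 0.16 at 18 h and down to -0.16 at 192 h. It had the smallest unadjusted p of 2503 genes, 0.000722, and an adjusted limma p of 0.80, so it did not pass. Without the dye term, which the polyA replicates set, the contrast was 0.62 with an unadjusted limma p of 0.0232. With spots under background left out, or from the authors' values, no contrast could be made. Of all genes tested for this contrast, 0% passed the adjusted threshold and 5.87% reached an unadjusted p under 0.05. The total RNA replicates alone gave 0.61 (adjusted limma p 0.996). The contrast was 0.24 ± 0.18 for Txnrd1 and 0.18 ± 0.19 for Gclm (SE, adjusted limma p 0.839 and 0.895). The Txnrd1 contrast fell to 0.047 without 18 h replicate 2. For the equal-weight average of the times and for the moderated F-test between all 3 times, none of the 4 genes met the minimum of replicates at every time. In each of these, 0% of 1215 genes passed, and 1.81% and 3.13% reached an unadjusted p under 0.05.

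**Figure D3:**
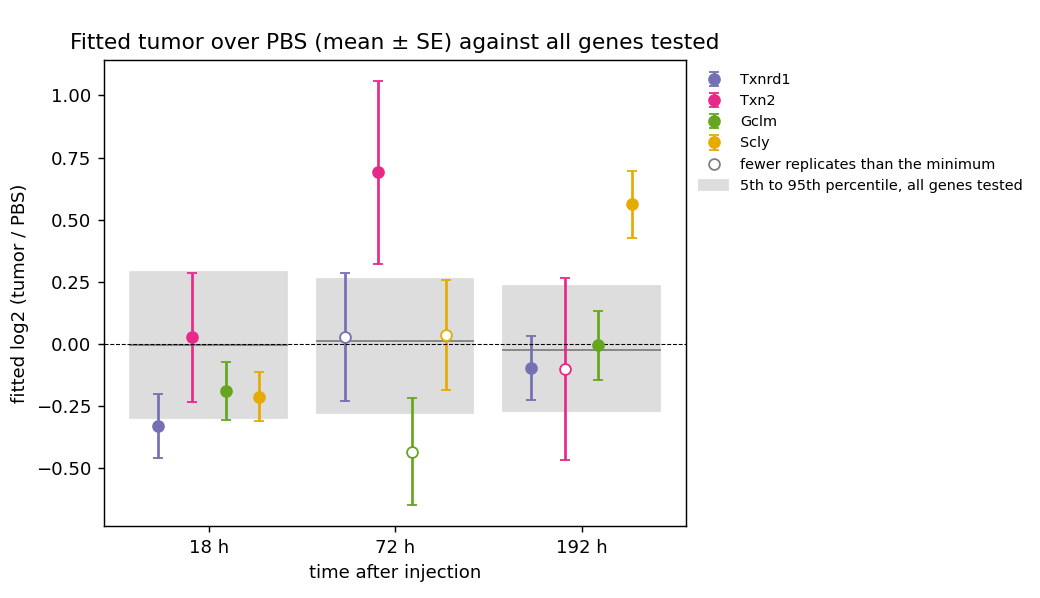
Fitted log2 ratio of tumor over PBS with its SE (y axis) for the 4 genes at each time (x axis). Open points had fewer replicates than the minimum set for a test, and grey boxes span the 5th to 95th percentile of all genes tested at that time, with the median as a grey line. Outside the boxes lie Txnrd1 at 18 h, Txn2 at 72 h, Scly at 192 h and the untested Gclm value at 72 h.

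Pooling the times, with a coefficient over all replicates that was likewise added after values had been seen, separated none of the genes from 0. Txnrd1 was at -0.19 ± 0.09 (SE, n = 9), below 0 in 6 of 9 replicates, with an adjusted limma p of 0.932. Gclm was at -0.15 ± 0.08 (SE, n = 8), below 0 in 6 of 8, Txn2 at 0.16 ± 0.20 (SE, n = 8) and Scly at 0.05 ± 0.12 (SE, n = 9), and no adjusted limma p was under 0.930. No gene of 2296 passed (0%), and 3.48% reached an unadjusted p under 0.05. Exact two-sided sign-flip permutation tests over the replicates gave p = 0.0742 for Txnrd1, 0.102 for Gclm, 0.742 for Txn2 and 0.859 for Scly, where 0.0039 is the smallest p that 9 replicates allow and 0.0078 that 8 allow. These p-values are not corrected for the 4 tests. The sign-flip tests hold no dye term and take the replicates as independent. Across genes, however, replicates 1 and 2 deviated together between 18 h and 192 h (r 0.549 and 0.387).

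Signs were compared between the genes with no test, over values that were mostly near 0. Over the replicates measured for both, Txnrd1 and Scly had the same sign in 6 of 8 and Txnrd1 and Gclm in 2 of 7. Gclm and Scly had the same sign in 2 of 8, Txnrd1 and Txn2 in 3 of 6, Txn2 and Gclm in 3 of 5 and Txn2 and Scly in 3 of 6. These genes were read from the same arrays, so the counts describe the arrays.

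The dye that the tumor RNA carried went with the ratio in several of these genes. Txnrd1 was above 0 on 0 of 8 arrays with the tumor in Cy5 and on 6 of 9 with the tumor in Cy3. In the 5 total RNA replicates measured in both orientations, the ratio was higher in Cy5 in 1, and the median difference was -0.25. For Gclm the Cy5 value was the higher in 6 of 6 pairs, by a median of 0.21, and for Txn2 in 4 of 4, by 0.28. For Scly it was the higher in 4 of 6 pairs, by a median of 0.11 over all 6. At 192 h the Scly Cy5 arrays exceeded the swapped ones by 0.42 and 0.46. At the earlier times the Scly difference, Cy5 less Cy3, ran from -0.24 to 0.19. In the mean of both orientations such a difference cancels, and in polyA replicates it does not.

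Scly also had the largest dye coefficient of the 4, 0.45 ± 0.13 (SE, adjusted limma p 0.0920), short of the threshold that 4.4% of 4522 genes passed. This coefficient rests on the polyA replicates, where replicate number and orientation coincide. Those of Txnrd1, Txn2 and Gclm were -0.09, -0.15 and -0.08, with adjusted limma p-values of 0.753 to 0.864. The signs of the Txnrd1 and Scly coefficients matched the majority of their swapped pairs, and those of Txn2 and Gclm did not. Only signs were compared, so a match says nothing about the size of a coefficient.

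**Figure D4:**
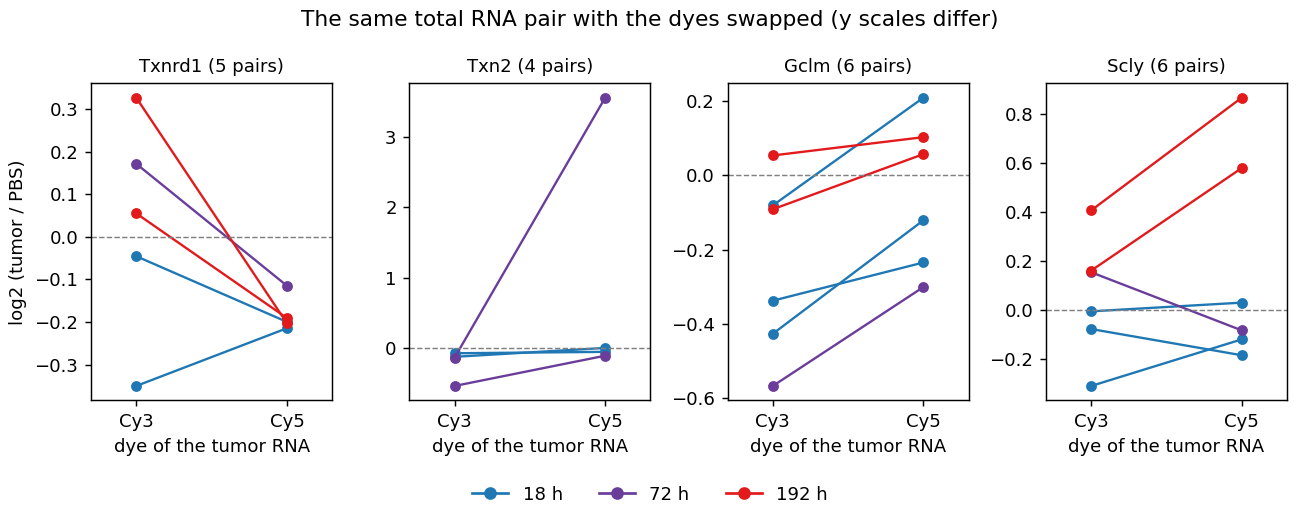
Log2 ratio of tumor over PBS (y axis, a scale per panel) with the tumor RNA in Cy3 or Cy5 (x axis), for the total RNA replicates measured in both orientations. A line joins the arrays of a replicate and its colour gives the time. All 6 Gclm lines rise towards Cy5, 4 of 5 Txnrd1 lines fall, and 1 Txn2 line runs from -0.14 to 3.57.

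Brightness, the mean log2 signal of both channels less the array's median, varied more between replicates than the ratio did, for each of the 4 genes. For Txnrd1 it ran from -0.55 (18 h replicate 5) to 1.71 (72 h replicate 4), with a mean of 0.56 ± 0.66 (SD, n = 11). For Txn2 it ran from -1.58 (192 h replicate 4) to 2.24 (18 h replicate 3), with a mean of -0.05 ± 0.98 (SD, n = 11). Gclm ran from -0.62 (72 h replicate 3) to 2.91 (18 h replicate 5), with a mean of 0.35 ± 1.11 (SD, n = 9). Scly was the least variable, from -1.39 (192 h replicate 3) to 0.15 (72 h replicate 4), with a mean of -0.36 ± 0.55 (SD, n = 10). Brightness of different probes depends on the probe and is not compared between genes. By time, Scly averaged -0.37 at 18 h, 0.10 at 72 h and -0.64 at 192 h (SD 0.54, 0.07 and 0.66, n = 5, 2 and 3), with overlapping ranges at 18 h and 192 h.

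Total RNA and polyA RNA did not separate the probes beyond their spread. The total minus polyA difference in brightness was -0.59 ± 0.44 for Txnrd1, 0.22 ± 0.59 for Txn2, 0.42 ± 0.87 for Gclm and 0.35 ± 0.46 for Scly (SE, adjusted limma p 0.774 to 0.962). Of 5055 genes, 0.0198% passed. The polyA arrays used were all of 1 print platform and the total RNA arrays of the other platforms, so RNA type and platform cannot be told apart.

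Beyond the 4 genes, 117 other genes of the thioredoxin, glutathione, selenium and NRF2 lists were looked for, and 60 were on the array. None passed at 18 h (44 tested), 72 h (13 tested) or 192 h (28 tested), and none reached an unadjusted p under 0.05 at any time. At 18 h 23 of the 44 were above 0 (52.3%, against 49.3% of all genes tested), with a median of 0.0027 against -0.0026. At 192 h 9 of the 28 were above 0 (32.1%, against 41.9%), with a median of -0.028 against -0.026. At 72 h 5 of 13 were above 0 (38.5%, against 52.6%), with a median of -0.05 against 0.013.

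Among the thioredoxin genes, 6 were tested at 18 h, 3 of them above 0, between -0.27 for Srxn1, the sulfiredoxin that repairs overoxidised peroxiredoxins, and 0.20 for Nxn, nucleoredoxin. Txn1, the cytosolic thioredoxin that Txnrd1 reduces, was at 0.04 at 18 h and 0.11 at 192 h. Among the glutathione genes, 9 of 17 were above 0 at 18 h and 4 of 10 at 192 h. The smallest p-values there at 18 h belonged to Gpx5, a secreted peroxidase known from the epididymis (0.37 ± 0.16, SE, n = 3, adjusted limma p 0.886), and Ggt7, a member of the gamma-glutamyltransferase family (-0.43 ± 0.22, SE, n = 3). The Ggt7 replicates ran from -1.25 to 0.20. At 192 h they belonged to Gstp1, a glutathione transferase, and Hagh, which releases glutathione in methylglyoxal clearance, at 0.18 ± 0.12 (SE, n = 3) and 0.19 ± 0.13 (SE, n = 4), each with an adjusted limma p of 0.999. Hagh was above 0 in 7 of 11 replicates over all times.

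Among the selenium genes, 6 of 13 were above 0 at 18 h, 1 of 5 at 72 h and 2 of 10 at 192 h, where Scly stood at 0.56 and the others between -0.18 and 0.12. At 72 h Selenom, a selenoprotein of the endoplasmic reticulum, was at -0.14 ± 0.14 and Trnau1ap, which binds the selenocysteine tRNA, at -0.14 ± 0.14 (SE, n = 2, adjusted limma p 0.992). Among NRF2 and other antioxidant genes, 6 of 10 were above 0 at 18 h, 1 of 3 at 72 h and 0 of 5 at 192 h. Mafg, a small MAF partner of NRF2, was at -0.25 ± 0.12 at 18 h (SE, n = 3, adjusted limma p 0.886). Sqstm1, the autophagy receptor p62, was at -0.22 ± 0.16 at 72 h (SE, n = 2, adjusted limma p 0.992), and at -0.08 ± 0.08 for the average of the times (SE, n = 10, adjusted limma p 0.996). Taldo1, the pentose phosphate enzyme transaldolase, was at -0.29 ± 0.18 at 192 h, below 0 in 3 of 3 replicates (SE, adjusted limma p 0.999). Tkt, transketolase of the same pathway, was at -0.09 ± 0.08 for the average of the times (SE, n = 10, adjusted limma p 0.996). Over all replicates, Msrb1, a selenoprotein that reduces methionine sulfoxide, was below 0 in 8 of 8, at -0.14 ± 0.07 (SE, adjusted limma p 0.932).

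**Figure D5:**
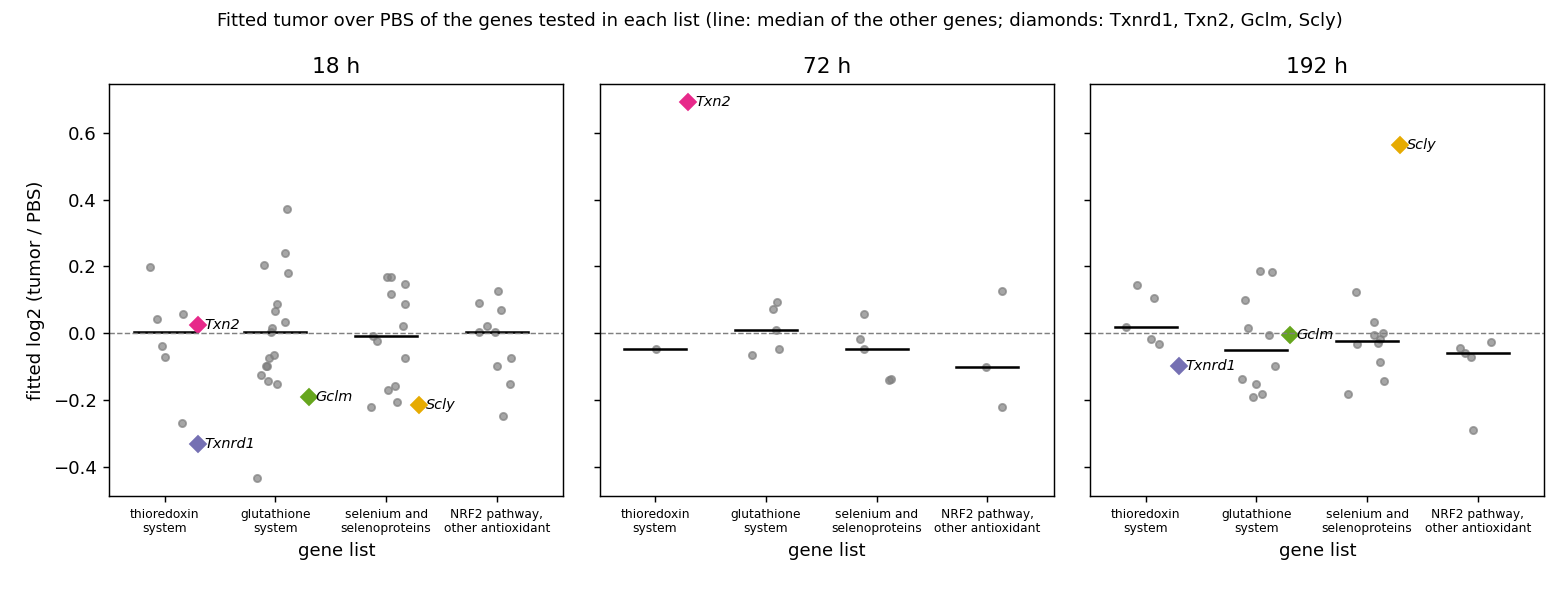
Fitted log2 ratio of tumor over PBS (y axis) of each gene tested in the 4 lists (x axis), at 18, 72 and 192 h. Grey points are the other genes of a list, black lines their medians, and coloured diamonds are Txnrd1, Txn2, Gclm and Scly beside their list. Scly at 192 h (0.56) lies above all 10 other selenium genes tested, and Txnrd1 at 18 h (-0.33) below all 6 other thioredoxin genes.

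Markers of cell types were read in the same fit. No marker of astrocytes, neurons, oligodendrocytes, microglia, vessels, ependyma or blood cells passed at any time, and at 18 h 2 of 10 neuron markers and 1 of 4 astrocyte markers tested were below 0 at an unadjusted p under 0.05, which 5.45% of all genes reached. Of the blood cell markers, the B cell gene Cd79a was lower at 72 h (-0.59, 1 of 2 tested) at that unadjusted threshold. Its partner Cd79b was higher at 192 h (0.39, 1 of 2 tested). The shares of all genes at those times were 1.71% and 4.25%. The other gene of the pair stood at -0.13 at 72 h (Cd79b) and 0.014 at 192 h (Cd79a). Of the hypothalamus markers, Pmch was lower at 18 h (-0.54 ± 0.19, SE, n = 3, 1 of 10 tested). It stood 0.84 ± 0.26 higher at 192 h than at 18 h (SE), in the direction of the Scly contrast. Its adjusted limma p-values were 0.886 at 18 h and 0.80 for that contrast. There it was 1 of 7 hypothalamus markers tested at an unadjusted p under 0.05, which 5.87% of all genes reached. Of those 7, 3 were above 0 and 4 below (median -0.05), with Gal the lowest at -0.44 ± 0.20 (SE). In replicates with 3 or more markers measured, the mean log2 ratio of astrocyte markers (5 of 10 on the array) ran from -0.12 to 0.15 at 18 h and from -0.16 to 0.04 at 192 h. That of neuron markers (11 of 14 on the array) ran from -0.46 to 0.15 at 18 h and from -0.29 to 0.13 at 192 h. Microglia markers (7 of 12 on the array) ran from -0.43 to 0.56 at 18 h and from -0.0086 to 0.13 at 192 h. Oligodendrocyte markers (6 of 12 on the array) ran from -0.24 to 0.11 at 18 h and from -0.46 to 0.11 at 192 h. Their lowest mean at 192 h was that of replicate 2, a replicate with a Scly value. At 192 h 0 of 4 oligodendrocyte markers tested were above 0 (median -0.12), against 41.9% of all genes tested. The part of these markers in the Txnrd1 and Scly values was not tested.

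The genes whose replicate ratios ran most like each of the 4, over at least 8 replicates, are given as a description, since many genes were searched over few replicates on shared arrays. For Txnrd1 these were Osbpl7 (Pearson r 0.942), Kcmf1 (0.927) and Dgcr8 (0.912), of 1191 candidates. For Gclm they were Rnf181 (0.950), Klc4 (0.832) and Mtch1 (0.823), of 859. For Scly they were Stk32c (0.948), Wbscr25 (0.931) and Krtap4-13 (0.912), of 1322. For Txn2, whose pattern is set by 1 replicate, the highest were Nck2 (0.527), Rps15 (0.511) and Septin7 (0.508), of 349. None of these 12 genes belongs to the lists above.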

How the data were processed

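RNA of 25 arrays was read from 3 scans each. Per the file headers, the deposited values were spot intensities of 2 channels with local background already subtracted, and 35.8% of them were 0. The authors' own values, deposited per array, were read as natural log ratios. Of these values neither log base nor normalization is stated in the sources used here, their medians per array lay between -0.0062 and 0.010 in log2, and they correlated with the scanner ratios at r of 0.586 to 0.856. The quantification software was likewise not given in the sources used here.

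A spot was used where both channels were above 0. Log2 ratios were normalized by loess per scan (span 0.3, 4 iterations), averaged over scans and then over the arrays of a replicate. A total RNA replicate needed both dye orientations. The brightest probe stood for a gene. Limma 3.58.1 in R 4.3.3, with the data.table package (version 1.17.8), modelled 11 replicates by time and dye (mean orientation), where a gene needed 3 replicates for 18 h, 2 for 72 h and 3 for 192 h, with p-values adjusted over all genes tested. The number of arrays limits the precision. The fit was tested on simulated data. The 4 genes and the gene lists were chosen with earlier results of these data known. From the other list genes, the 3 with the smallest unadjusted p at each time and for the average of the times were named. Msrb1 (smallest p over all replicates), Txn1 (the substrate of Txnrd1), and Srxn1 and Nxn (the ends of a range) fall outside that rule and were chosen after their values were seen. Samples with the same replicate number deviated together for numbers 1 and 2 (r 0.549 and 0.387), but not for 3 and 4 (r -0.064 to 0.115 over pairs of times). Within number 1 and within number 2 the samples share orientation, polyA RNA and print platform. These cannot be told apart from a link between the samples themselves. In the main fit the numbers were not taken as pairs.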

Additional observations from a re-analysis of the deposited data

Results flagged for a closer look

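Of 12 groups of 4 to 10 values looked at, 2 had a value far from the others by Dixon's criterion, which chance alone meets in about 1 of 20 groups. Both belong to Gclm in 18 h replicate 5. Its log2 ratio of tumor over PBS was 0.0645, with the nearest of the other 3 at -0.273, a gap of 0.838 of the whole range. Its brightness was 2.91 above the array median, with the nearest at -0.175, a gap of 0.908 of the range.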

How the results depend on the processing

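The 4 genes stayed short of the adjusted threshold at each time, in the contrast of 192 h with 18 h and over all replicates, in every alternative that gave them a value, namely print-tip loess, median centring, the authors' values, normexp, a signal filter, no minimum of replicates, the mean of probes, no dye term, RNA type as a covariate, total RNA alone, all 25 arrays, print platform as a block, 1 dye orientation (added after the data were seen) and each replicate left out. Apart from replicates left out, the sign of a fitted ratio turned only for Txn2 at 18 h with total RNA alone (-0.0684), for Gclm at 192 h with no dye term (0.0194), total RNA alone (0.0309) or all 25 arrays (0.0871), and for Gclm in the contrast with median centring (-0.0923), which also moved the median of all genes at 192 h to -0.137. Dye coefficients turned for Txnrd1 with median centring (0.599), the authors' values (0.0286) or normexp (0.0102), for Txn2 with the signal filter (0.00966) and for Gclm with all 25 arrays (0.106). The causes were not tested.

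Leaving out each replicate gave Txnrd1 -0.401 to -0.143 at 18 h and -0.173 to 0.0741 at 192 h, Txn2 -0.133 to 0.0904 at 18 h and -0.33 to 1.71 at 72 h, Gclm -0.295 to -0.149 at 18 h and -0.0649 to 0.0309 at 192 h, and Scly -0.269 to -0.112 at 18 h and 0.50 to 0.678 at 192 h. Over all replicates Scly ranged from -0.0214 to 0.136, and the dye coefficients of Txnrd1 and Txn2 from -0.279 to 0.0796 and from -0.312 to 0.0696. Counts of genes past the threshold ranged from 0 to 1 at 72 h and from 0 to 3 at 192 h.

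With no minimum of replicates, 1 gene passed at 72 h, 21 at 192 h and 12 in the contrast, none of them among the 4 genes (Scly at 192 h had an adjusted p of 0.212), and 2 passed for the average of the times and 3 for the difference between the times. All 25 arrays gave 5 genes at 72 h, total RNA alone 1 at 192 h, and RNA type as a covariate 1 over all replicates. The dye term passed for 1157 genes with median centring, 123 with the authors' values and 60 with all 25 arrays, against 199. Brightness passed for 2 genes in the PBS channel and 10 after quantile normalization, against 1. With the replicate block, which takes the place of the dye term, the contrast of 192 h with 18 h was 0.295 for Txnrd1, 0.31 for Gclm and 0.744 for Scly, with no gene past the threshold, also between all 3 times (0). The arrays' dim signal limits all of these values.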
